A study of Mus musculus with 6 samples.

Results

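The genes described here are 35 markers of macrophages, monocytes and dendritic cells, read out in whole mouse liver after feeding of PS-MP. This name in usual usage stands for polystyrene microplastic. The 35 genes were chosen by name for what their products do, with earlier results of these data known. Of them, 20 are pan-macrophage genes, 3 mark monocyte-derived cells, 4 mark lipid-associated macrophages and 8 mark dendritic cells. All 35 have a row among the 55802 gene symbols of the files, and 33 of them passed the filter on low counts that left 17662 genes to test. The livers came from C57BL/6 male mice, and the titles give 71 weeks, taken here as their age. The titles do not say whether this was also the time on the diet. The PS-MP group (3 libraries) ate chow that held PS-MP, and the control group (3 libraries) ate normal chow. The particle size and dose were not given in the sources used here. GEO labels do not say that the replicates are separate animals, so the tests reflect the spread among these libraries, which may be technical.

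Liver holds resident macrophages, the Kupffer cells, which sit in the sinusoids and clear particles, bacteria, old red cells and dead cells from portal blood. Blood monocytes can enter the organ and become macrophages, among them lipid-associated macrophages that gather around fat-laden or dying cells, while dendritic cells take up antigen and carry it to lymph nodes. Most of these genes are shared between several myeloid cell types: neutrophils also use Itgam, Itgb2, Tyrobp, Fcer1g, Laptm5 and Cybb, endothelium and hepatocytes also use Id3, and Cd9, Axl and Mertk are made by other liver cells too. In whole tissue, fewer cells of a type and less RNA per cell cannot be told apart.

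The libraries held 68357478 to 112566641 counts, so that 1 count corresponded to 0.00945 to 0.0164 CPM (a library-scaled count, with totals adjusted by the trimmed mean of M values, TMM). The hepatocyte markers Alb, Apoa1, Ttr, Cps1, Tat and Cyp2e1 together gave 66073 to 83810 CPM in PS-MP and 59591 to 76846 CPM in control libraries. The 35 genes together gave 234.9, 253.8 and 265.6 CPM in PS-MP and 203.5, 262.8 and 250.5 CPM in control replicates 1 to 3. The Kupffer cell markers Adgre1, Clec4f and Vsig4 were counted in every library. Reads of 18S ribosomal RNA (Rn18s-rs5) took 1.14%, 0.599% and 0.387% of the counts in PS-MP and 2.92%, 11.2% and 1.15% in control replicates 1 to 3. Control replicate 2 thus stood apart in this respect.

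Across the 33 genes tested, several pan-macrophage genes had their 3 highest values in PS-MP, but none of the 33 passed the test over all genes. The edgeR quasi-likelihood test called 0 of the 33 at an adjusted p of 0.05, where it called 0.0113% of all genes. DESeq2 and limma-voom also called 0 of the 33, against 1.06% and 0.00566% of all genes. Without adjustment, 3 of the 33 had p under 0.05 in edgeR, all of them higher in PS-MP (Spic, Fcgr3 and Adgre1), where 2.80% of all genes were higher and 2.58% lower at that level.

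In 9 of the 33 genes (27.3%) each PS-MP library lay above each control library: Adgre1, Csf1r, Cd68, Itgb2, Fcgr1, Fcgr3, Laptm5, Spic and Lgals3. None lay entirely below. Over all genes tested, 6.24% lay entirely above and 4.99% entirely below. The log2 fold change (PS-MP over control) was above 0 for 25 of the 33 genes, where 52.8% of all genes were above 0. Its median was 0.33 for the 33 genes and 0.02 for all genes.

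These counts depended on single libraries. Leaving out control replicate 2 or PS-MP replicate 3 gave 5 genes with unadjusted p under 0.05 in each case. In the first all 5 were higher, where 5.32% of all genes were higher at that level. In the second 4 were higher and Id3 was lower, where 2.96% of all genes were higher and 3.83% lower. The number was 1 once control replicate 1 was removed, 2 once PS-MP replicate 2 was, and 0 once PS-MP replicate 1 was. Any such genes were higher, as were 2.58%, 2.16% and 1.88% of all genes in turn. With fewer libraries more genes did not overlap. Removing control replicate 2 left 17 entirely above and 0 below, where 15% of all genes lay above and 14.2% below. Removing control replicate 3 left 13 above and 1 below, where the shares of all genes were 9.34% and 7.95%. Removing PS-MP replicate 3 left 15 above and 1 below, where they were 12.4% and 11.3%. Scaling by library size alone raised the median log2 fold change of all genes tested by 0.21; it gave 13 genes that were higher with unadjusted p under 0.05, as were 8.27% of all genes, and 14 that lay entirely above, as did 17.5% of all genes.

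**Figure D1:**
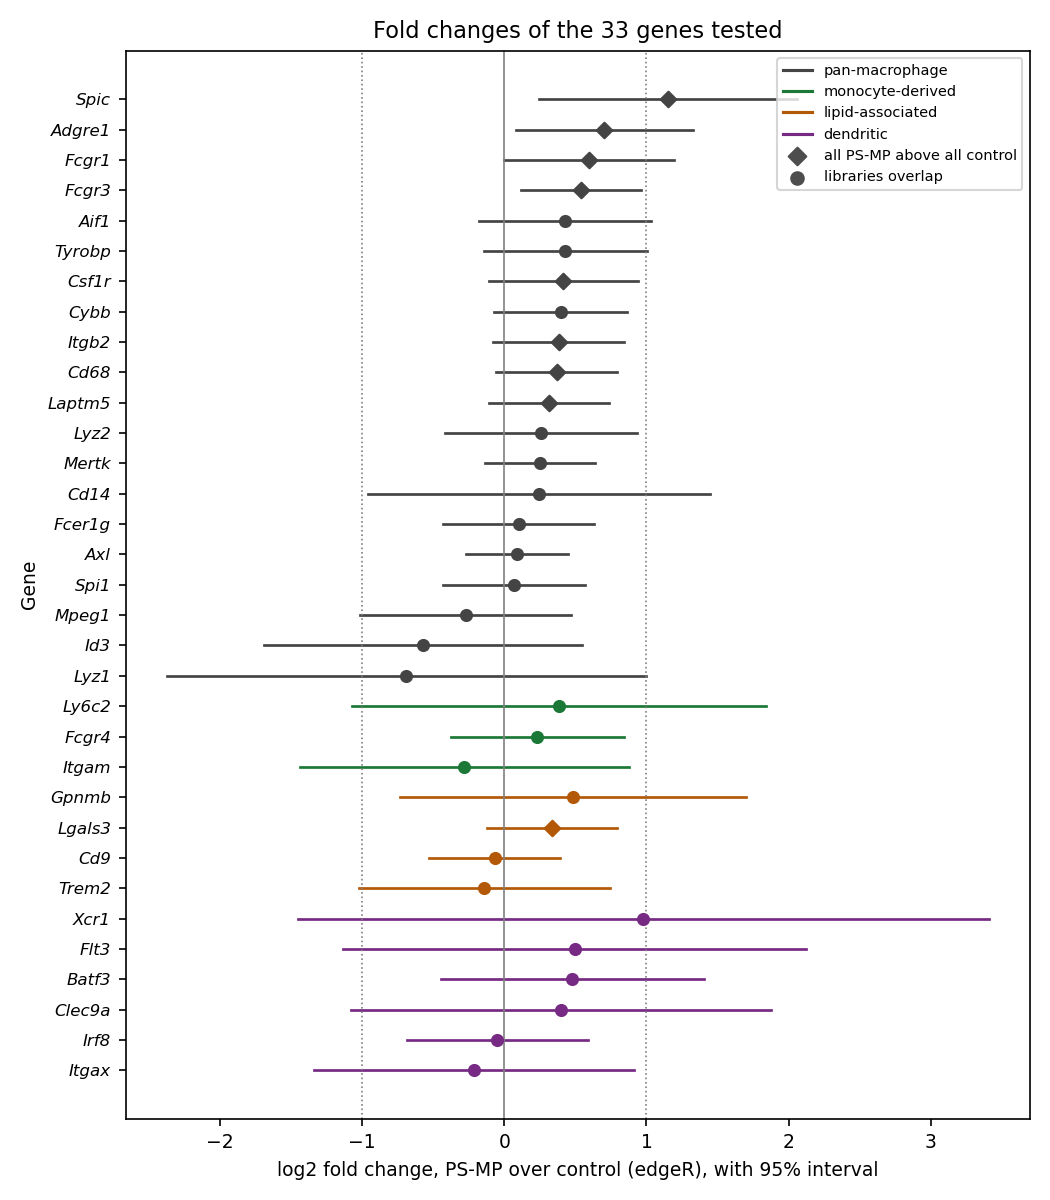
The log2 fold change of PS-MP over control (x axis) with its 95% interval is drawn for each of the 33 genes tested, coloured by role, with dotted lines at a 2-fold change either way. Only the intervals of Spic, Adgre1 and Fcgr3 lie wholly to the right of 0, and Xcr1, Lyz1 and Flt3 have the widest intervals.

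The 95% intervals give the sizes of change compatible with the spread. For 15 of the 33 genes (45.5%) the interval lay inside a 2-fold change in either direction, as it did for 53.5% of all genes tested. Of these 15, 11 were among the 20 pan-macrophage genes and 1, Irf8, was among the 6 dendritic genes tested. For the remaining genes a 2-fold difference was not excluded.

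Among the pan-macrophage surface receptors, Adgre1 and Csf1r had their 3 highest values in PS-MP. Adgre1 encodes F4/80, the adhesion receptor by which mouse macrophages are usually recognised. It measured 13.7, 9.02 and 8.46 CPM in PS-MP replicates 1 to 3 and 6.10, 5.21 and 7.85 CPM in control replicates 1 to 3. The lowest PS-MP library lay just above the highest control library, and PS-MP replicate 1 stood well above the rest. The log2 fold change was 0.70 (SE 0.26, 95% interval 0.08 to 1.32, edgeR adjusted p = 0.903), and 0.45 without PS-MP replicate 1. Csf1r, the receptor for the macrophage growth factors CSF1 and IL-34, had 28.7, 25.3 and 29.8 CPM in PS-MP and 24.4, 14.6 and 23.8 CPM in control. Control replicate 2 was the low one, and the other control libraries lay close under the PS-MP values. Its log2 fold change was 0.41 (SE 0.22, edgeR adjusted p = 0.943), and 0.21 without control replicate 2. An opposite-strand gene, Hmgxb3, overlaps 15.1% of the exon length of Csf1r, and Hmgxb3 itself averaged 8.66 CPM in PS-MP and 8.72 CPM in control.

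Cd68, a glycoprotein of the lysosomal membrane of phagocytes, had 4.80, 5.02 and 5.86 CPM in PS-MP and 4.09, 3.88 and 4.18 CPM in control. The control libraries were close together, and the PS-MP libraries lay above them by a small margin (log2 fold change 0.37, SE 0.18, edgeR adjusted p = 0.923). Itgb2 encodes CD18, the beta chain that pairs with the alpha chains of Itgam and Itgax. It gave 7.08, 7.85 and 5.49 CPM in PS-MP and 5.38, 5.16 and 5.11 CPM in control (log2 fold change 0.38, SE 0.19, edgeR adjusted p = 0.931). PS-MP replicate 3 was nearly level with control. Cd14, the coreceptor for lipopolysaccharide, behaved otherwise, with 1.72, 0.419 and 1.32 CPM in PS-MP and 1.09, 0.805 and 1.02 CPM in control. PS-MP replicate 2 held the lowest and PS-MP replicate 1 the highest Cd14 value of all 6 libraries, so the groups overlapped.

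**Figure D2:**
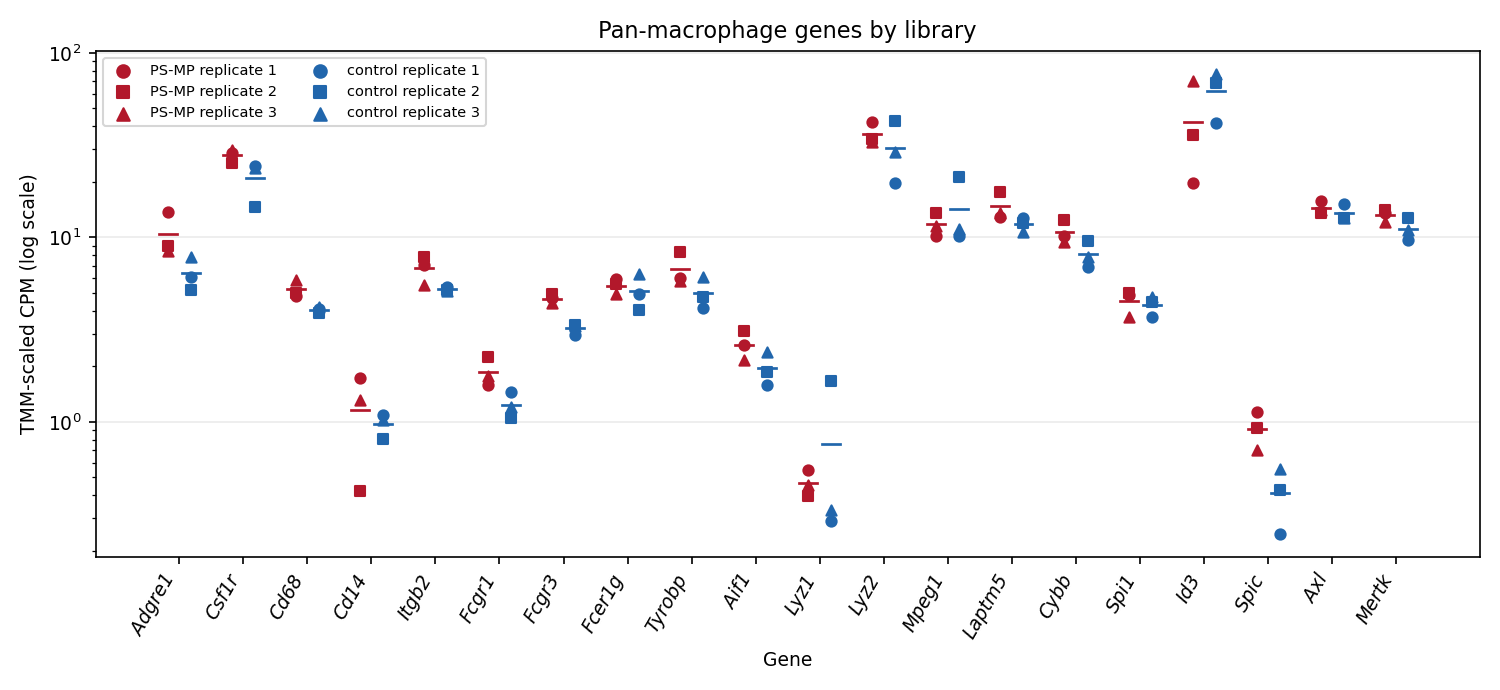
TMM-scaled CPM on a log axis for the 20 pan-macrophage genes, with PS-MP libraries (red) left of control libraries (blue), a marker shape per replicate number and a short bar at each group mean. Adgre1, Csf1r, Cd68, Itgb2, Fcgr1, Fcgr3, Laptm5 and Spic show every red point above every blue one, while Lyz1, Mpeg1 and Id3 have higher control means.

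Among the 35 genes, the IgG receptors Fcgr1, Fcgr3 and Fcgr4 and the signalling adaptors Fcer1g and Tyrobp were above 0 in log2 fold change. That is 5 of 5 genes, with a median of 0.43, where 52.8% of all genes were above 0. Fcgr2b, an IgG receptor outside the 35, was at -0.12. Fcgr3, a low-affinity activating IgG receptor, had the tightest values: 4.67, 4.90 and 4.39 CPM in PS-MP and 2.95, 3.37 and 3.31 CPM in control. The gap between the groups was wider than the range within either one. Its log2 fold change was 0.54 (SE 0.18, 95% interval 0.12 to 0.96, edgeR adjusted p = 0.840), and it lay between 0.48 and 0.57 with any one library left out. Its transcripts share 9.58% of their 50-base words with Fcgr2b, the inhibitory receptor, which averaged 16.3 CPM in PS-MP and 17.7 CPM in control. Fcgr1, the high-affinity IgG receptor, gave 1.59, 2.25 and 1.78 CPM in PS-MP and 1.46, 1.05 and 1.21 CPM in control, with a log2 fold change of 0.59 (SE 0.25, edgeR adjusted p = 0.923). PS-MP replicate 1 and control replicate 1 were close to each other.

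The adaptors carry the ITAM motif, a tyrosine-based sequence that recruits the kinase Syk once phosphorylated. Tyrobp (DAP12), the partner of Trem2 among others, had 6.02, 8.35 and 5.80 CPM in PS-MP and 4.13, 4.73 and 6.12 CPM in control. Control replicate 3 reached the PS-MP range (log2 fold change 0.43, SE 0.24, edgeR adjusted p = 0.955). Fcer1g, the common gamma chain of the Fc receptors, had 5.92, 5.60 and 4.92 CPM in PS-MP and 4.90, 4.06 and 6.35 CPM in control. Its highest and lowest values were both in control, and its log2 fold change of 0.10 turned to -0.04 without control replicate 2.

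Promoter sequences are shown for the 6 genes whose libraries did not overlap and for which a window was matched, because PU.1, the product of Spi1, is known to drive many myeloid genes from purine-rich sites near the start of transcription. Each runs 5′ to 3′ on the strand of the gene, from 100 bases before to 50 bases after the annotated start, and comes from RefSeq with the build GRCm38.p6, which is earlier than the build of the counts. Capitals mark TTCCTCTT, which is AAGAGGAA on the opposite strand; the stretches of Spic and Lgals3 hold no match.
Fcgr1 (chr3:96293920-96294069, minus strand): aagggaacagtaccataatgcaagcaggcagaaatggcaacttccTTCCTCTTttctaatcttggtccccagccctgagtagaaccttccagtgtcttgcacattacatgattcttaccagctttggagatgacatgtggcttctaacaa
Fcgr3 (chr1:171059354-171059503, minus strand): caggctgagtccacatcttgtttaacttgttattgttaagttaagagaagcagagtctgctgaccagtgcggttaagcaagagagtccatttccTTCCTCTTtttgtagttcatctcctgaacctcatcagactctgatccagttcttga
Laptm5 (chr4:130913216-130913365, plus strand): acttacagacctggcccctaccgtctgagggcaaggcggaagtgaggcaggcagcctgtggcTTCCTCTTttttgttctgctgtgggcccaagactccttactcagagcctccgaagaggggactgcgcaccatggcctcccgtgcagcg
Cd68 (chr11:69666121-69666270, minus strand): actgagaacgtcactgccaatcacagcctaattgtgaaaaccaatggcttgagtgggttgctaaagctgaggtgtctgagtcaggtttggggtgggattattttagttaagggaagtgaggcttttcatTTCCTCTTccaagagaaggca
Spic (chr10:88682974-88683123, minus strand): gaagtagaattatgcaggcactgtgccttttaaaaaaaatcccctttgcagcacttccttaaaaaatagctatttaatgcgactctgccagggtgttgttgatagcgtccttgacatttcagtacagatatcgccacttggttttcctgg
Lgals3 (chr14:47373760-47373909, plus strand): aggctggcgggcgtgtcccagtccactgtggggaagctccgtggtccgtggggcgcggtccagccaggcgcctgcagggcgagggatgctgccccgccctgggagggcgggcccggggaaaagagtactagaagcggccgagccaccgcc

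The word AAGAGGAA and its core GAGGAA, which lies inside it, were chosen after these sequences had been read, and were searched on both strands of windows from 250 bases before to 50 after each start. A window was matched for 29 of the 35 genes. AAGAGGAA was present for 5 of the 29 (17.2%), namely Cd68, Fcgr1, Fcgr3, Laptm5 and Siglech, and for 4.11% of 27025 genes with a window. Of these, Cd68, Fcgr1, Fcgr3 and Laptm5 are among the 6 printed sequences that the word was chosen from. That choice partly fixed the higher share, which therefore does not test whether the word is more common here. GAGGAA, chosen from the same sequences, was present for 14 of the 29 (48.3%) and for 31.3% of all genes. A match describes the letters in this window and is not a measured binding site.

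Among the cytoplasmic, lysosomal and secreted products, Lyz2, Mpeg1 and Lyz1 differed between control libraries more than between diets. Lyz2 encodes the lysozyme of macrophages and neutrophils, and had 42.2, 34.1 and 32.9 CPM in PS-MP and 19.8, 42.6 and 29.1 CPM in control. Control replicate 2 was the highest and control replicate 1 the lowest of the 6 libraries. Lyz1, the close copy best known from Paneth cells of the gut, had 0.546, 0.396 and 0.455 CPM in PS-MP and 0.289, 1.66 and 0.331 CPM in control, where control replicate 2 stood far above all others. The pair share 16.1% of the 50-base words of Lyz1, so part of the Lyz1 count is uncertain. As a share of the Lyz2 count, Lyz1 was 1.3%, 1.16% and 1.38% in PS-MP and 1.46%, 3.89% and 1.14% in control. Mpeg1, the pore-forming perforin-2, showed the same library apart, at 10.1, 13.6 and 11.6 CPM in PS-MP and 10.2, 21.3 and 11.1 CPM in control. Without control replicate 2 the log2 fold changes were 0.57 instead of 0.26 for Lyz2, 0.58 instead of -0.69 for Lyz1 and 0.14 instead of -0.27 for Mpeg1.

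Laptm5, a lysosomal protein that limits signalling in immune cells, had 12.9, 17.7 and 13.5 CPM in PS-MP and 12.8, 12 and 10.7 CPM in control. Its groups did not overlap, by a narrow margin (log2 fold change 0.31, SE 0.18, edgeR adjusted p = 0.955). Cybb, the catalytic subunit of the phagocyte NADPH oxidase, had 10.1, 12.4 and 9.44 CPM in PS-MP and 6.89, 9.58 and 7.81 CPM in control, with a log2 fold change of 0.40 (SE 0.20, edgeR adjusted p = 0.931). Aif1 (IBA1), an actin-binding protein of macrophages, averaged 2.62 ± 0.466 CPM in PS-MP and 1.95 ± 0.404 CPM in control (SD, n = 3 each). For both genes 1 control library entered the PS-MP range.

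The transcription factors differed in the sign of their fold change. Spic, a PU.1-related factor of iron-handling macrophages, was low in every library, with 93, 82 and 60 counts in PS-MP and 18, 26 and 59 counts in control, or 1.13, 0.929 and 0.701 CPM against 0.248, 0.427 and 0.558 CPM. It had the largest fold change of the 33 genes, 2.22-fold with a 95% interval of 1.18 to 4.17. On the log2 scale that is 1.15 (SE 0.38, edgeR adjusted p = 0.840). With any one library left out the log2 fold change lay between 0.89 and 1.45. Spi1, which encodes PU.1, had 4.86, 4.97 and 3.70 CPM in PS-MP and 3.72, 4.43 and 4.75 CPM in control, with a log2 fold change of 0.07 and a 95% interval of -0.43 to 0.57. The groups overlapped almost fully.

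Id3 is a partner and inhibitor of helix-loop-helix factors that is required for Kupffer cell identity in mice. Its mean CPM was the highest of the 35 genes in both diets, at 42.2 in PS-MP and 62.5 in control. In PS-MP replicate 1 it lay below Lyz2. It had 19.8, 35.9 and 70.9 CPM in PS-MP and 41.9, 68.6 and 77.1 CPM in control. PS-MP replicates 1 and 2 were below every control library, while PS-MP replicate 3 lay among them (log2 fold change -0.57, SE 0.47, edgeR adjusted p = 1). Without PS-MP replicate 3 the log2 fold change was -1.18 (edgeR adjusted p = 0.664). Id3 alone made up 9.53%, 16.4% and 29.6% of the summed pan-macrophage CPM in PS-MP and 23.7%, 29.7% and 34.0% in control. The sum of all 20 pan-macrophage genes overlapped between the diets, at 222.2 ± 15.9 CPM in PS-MP and 211.3 ± 30.0 CPM in control (SD, n = 3 each). The 19 genes other than Id3 summed to 188.0, 183.5 and 168.5 CPM in PS-MP and 134.9, 162.2 and 149.4 CPM in control, a split made after the values were seen.

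Axl and Mertk, receptor kinases that recognise dead cells through the bridging proteins Gas6 and protein S, had the smallest standard errors of the 33 genes, 0.15 and 0.16 on the log2 scale. Axl had 15.8, 13.5 and 14 CPM in PS-MP and 15.2, 12.8 and 12.7 CPM in control, with a log2 fold change of 0.09 (95% interval -0.27 to 0.45). Mertk had 13.5, 14.1 and 12.1 CPM in PS-MP and 9.72, 12.7 and 11 CPM in control, with 0.25 (-0.13 to 0.64). Both groups overlapped, and both intervals lay inside a 2-fold change. Their ligands had log2 fold changes of 0.17 for Gas6 and 0.04 for Pros1.

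The monocyte-derived genes did not separate the diets. Itgam (CD11b), an integrin chain high on monocytes and neutrophils, had 61, 53 and 30 counts in PS-MP and 29, 68 and 58 counts in control, or 0.741, 0.6 and 0.350 CPM against 0.399, 1.12 and 0.548 CPM. Its log2 fold change was -0.28 (SE 0.48, edgeR adjusted p = 1) and 0.24 without control replicate 2. Of the 50-base words of Itgam, 66.3% also lie in the overlapping transcript gene Gm49368, so its counts depend on how shared reads were handled. Ly6c2, part of the Ly6C antigen of inflammatory monocytes and also of some lymphocytes, had 1.09, 3.53 and 0.666 CPM in PS-MP and 1.32, 1.61 and 1.12 CPM in control. PS-MP replicate 2 alone was high, and the log2 fold change of 0.39 became -0.62 without it. Fcgr4, an IgG receptor of mouse monocytes and macrophages, averaged 2.44 ± 0.566 CPM in PS-MP and 2.07 ± 0.284 CPM in control (SD, n = 3 each), with the groups overlapping.

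Of the 4 lipid-associated genes, 2 (Cd9 and Lgals3) had 95% intervals inside a 2-fold change, as did 53.5% of all genes tested. Lgals3 alone did not overlap between the diets, where 6.24% of all genes lay entirely above. Trem2, a receptor for lipids and lipoproteins that signals through Tyrobp, had 24, 46 and 38 counts in PS-MP and 39, 32 and 35 counts in control, or 0.291, 0.521 and 0.444 CPM against 0.537, 0.526 and 0.331 CPM. Its log2 fold change was -0.14 (95% interval -1.02 to 0.74). Gpnmb, a glycoprotein induced in lipid-laden macrophages, had 0.838, 0.498 and 0.269 CPM in PS-MP and 0.427, 0.493 and 0.236 CPM in control. PS-MP replicate 1 was the high one, and without it the log2 fold change was 0.00 instead of 0.48. Lgals3 (galectin-3), a sugar-binding protein of activated macrophages, had 4.66, 5.37 and 4.02 CPM in PS-MP and 3.72, 3.56 and 3.86 CPM in control. Every PS-MP library lay above every control library. Its log2 fold change was 0.33 (SE 0.19, edgeR adjusted p = 0.955). Cd9, a tetraspanin made by many cell types, averaged 10.7 ± 1.48 CPM in PS-MP and 11.2 ± 1.83 CPM in control (SD, n = 3 each).

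**Figure D3:**
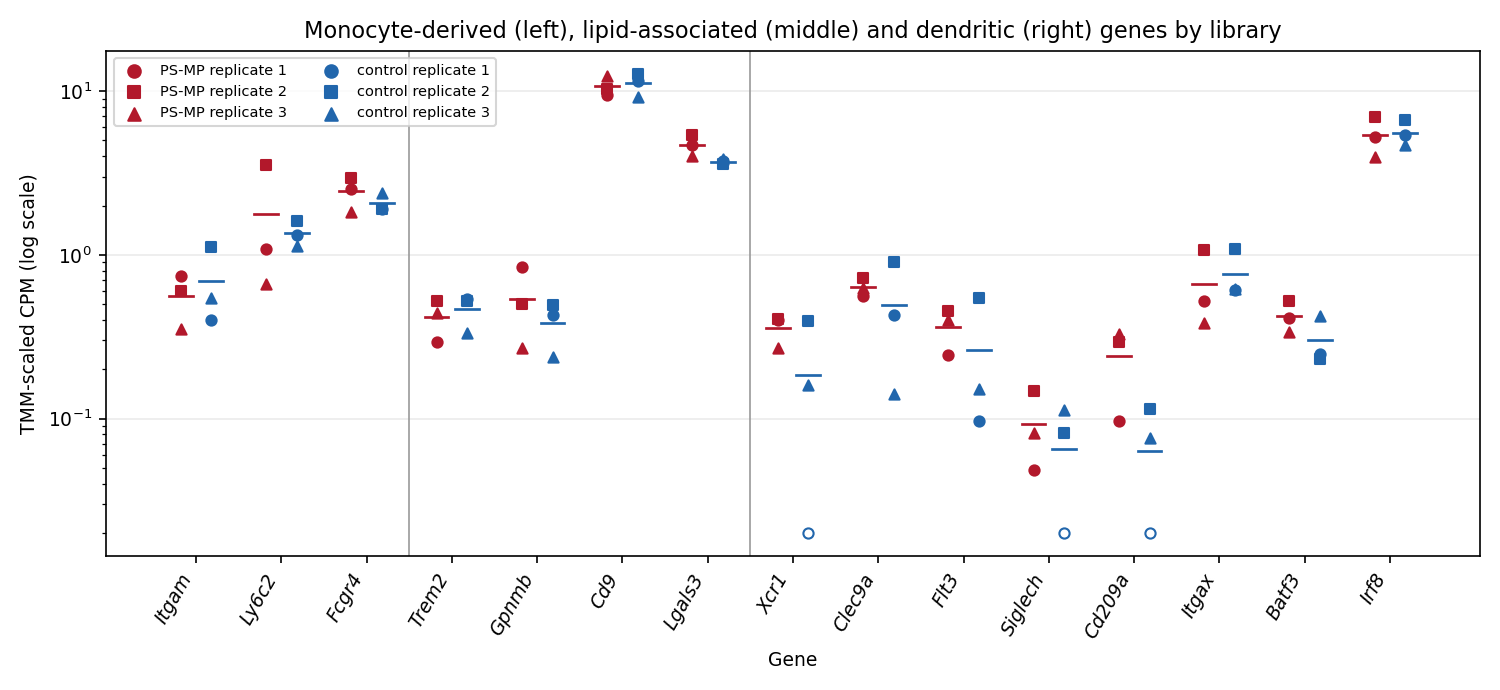
TMM-scaled CPM on a log axis for the monocyte-derived, lipid-associated and dendritic genes, PS-MP libraries (red) left of control libraries (blue), with a bar at each group mean; open symbols near the bottom mark libraries with 0 counts. Control replicate 1 has 0 counts of Xcr1, Siglech and Cd209a, and PS-MP replicate 2 is high for Ly6c2, Itgax and Irf8.

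Genes of dendritic cells were scarce, and the spread between control libraries was wide. Flt3, the growth factor receptor on which dendritic cells depend, had 20, 40 and 34 counts in PS-MP and 7, 33 and 16 counts in control. Clec9a, a receptor for dead cells on type 1 conventional dendritic cells, had 46, 64 and 54 counts in PS-MP and 31, 55 and 15 counts in control. Xcr1, the chemokine receptor of the same cells, had 33, 36 and 23 counts in PS-MP and 0, 24 and 17 counts in control. For all 3 genes control replicate 2 was the highest control library, and in CPM the control values of Clec9a spanned 6.37-fold where the PS-MP values spanned 1.3-fold. Clec9a overlaps Clec1b on the same strand and shares 4.02% of its 50-base words with it. Clec1b averaged 3.72 CPM in PS-MP and 2.60 CPM in control, and its part in the Clec9a counts was not tested. The log2 fold changes were 0.50 (95% interval -1.13 to 2.12) for Flt3, 0.40 (-1.07 to 1.87) for Clec9a and 0.98 (-1.45 to 3.41) for Xcr1. A difference of 2-fold in either direction was therefore not detectable at this spread. Without control replicate 2 the values were 1.53 for Flt3 (edgeR adjusted p = 0.511), 1.18 for Clec9a (0.580) and 2.05 for Xcr1 (0.620). Without control replicate 1 they were 0.10 for Flt3 and 0.40 for Xcr1, and without control replicate 3 the value for Clec9a was -0.05.

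Batf3, a transcription factor of type 1 conventional dendritic cells, averaged 0.424 ± 0.0917 CPM in PS-MP and 0.301 ± 0.108 CPM in control (SD, n = 3 each). Irf8, which directs both dendritic cell and monocyte development, had 5.23, 6.99 and 3.98 CPM in PS-MP and 5.37, 6.70 and 4.68 CPM in control, with a log2 fold change of -0.05 (95% interval -0.68 to 0.59). Itgax (CD11c) had 0.522, 1.08 and 0.385 CPM in PS-MP and 0.606, 1.08 and 0.614 CPM in control. In both genes replicate 2 of either diet was the highest of its group, and the groups overlapped.

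Siglech, a marker of plasmacytoid dendritic cells, and Cd209a, a lectin of dendritic cells, had too few counts to be tested. Siglech had 4, 13 and 7 counts in PS-MP and 0, 5 and 12 counts in control. Cd209a had 8, 26 and 28 counts in PS-MP and 0, 7 and 8 counts in control. For a library at 0, control replicate 1 in both genes, a count of 0 allows up to 3 counts, or 0.0413 CPM, by counting error alone.

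Per length, the genes ranged over more than 2 orders of magnitude, on a scale of CPM per kilobase of exon from GENCODE M21. Lyz2 and Id3 stood at the top, with 27.7 and 23.6 CPM per kilobase in PS-MP and 23.2 and 34.9 in control. Tyrobp followed, with 10.1 in PS-MP and 7.49 in control. Adgre1 was at 3.21 in PS-MP and 1.97 in control, Clec9a at 0.194 and 0.149, and Trem2 at 0.0847 and 0.0939. Siglech was the lowest, with 0.0274 in PS-MP and 0.0193 in control.

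The libraries differed in how often they held the extreme value. PS-MP replicate 2 held the highest CPM for 15 of the 33 genes, and control replicate 1 the lowest for 10. Control replicate 2 was at both ends, highest for 8 genes and lowest for 7. The median deviation of the 33 genes from their mean over 6 libraries, as log2(CPM + 0.1), was 0.16, 0.34 and 0.02 in PS-MP replicates 1 to 3 and -0.21, 0.02 and -0.14 in control replicates 1 to 3. Over all genes tested these medians lay between -0.003 and 0.041.

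Markers of other leukocytes moved with some of these libraries. The summed level of 10 T cell markers was 5.31, 15.6 and 9.49 CPM in PS-MP and 7.81, 11.1 and 6.28 CPM in control replicates 1 to 3. That of 8 B cell markers was 8.0, 24.9 and 12.8 CPM in PS-MP and 15.1, 22.3 and 8.44 CPM in control. Both were highest in PS-MP replicate 2 and, within control, in replicate 2. So was the summed level of the 8 dendritic genes, at 7.51, 10.6 and 6.41 CPM in PS-MP and 6.75, 10.1 and 6.36 CPM in control. Most of this dendritic sum was Irf8, with 5.23, 6.99 and 3.98 CPM in PS-MP and 5.37, 6.70 and 4.68 CPM in control. The sum thus says little about the scarce dendritic genes. The 7 NK cell markers gave 0.898 to 2.71 CPM in PS-MP and 1.32 to 1.74 CPM in control. Their part in the dendritic and Ly6c2 values was not tested.

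Neutrophil markers did not overlap between the diets. The 11 markers summed to 3.04, 8.04 and 4.22 CPM in PS-MP and 2.16, 1.94 and 1.51 CPM in control, with Ly6g at 0 in every library. Of the 6 that could be tested, 5 were above 0, where 52.8% of all genes were. In 4 of the 6 each PS-MP library lay above each control library, as in 6.24% of all genes. In edgeR 3 were higher with unadjusted p under 0.05, where 2.80% of all genes were. These were S100a9, Csf3r and S100a8 (edgeR adjusted p = 0.767, 0.805 and 0.918). Since neutrophils share Itgb2, Fcgr3, Laptm5 and Tyrobp with macrophages, these values stand beside those of the shared genes, and their part in them was not tested.

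**Figure D4:**
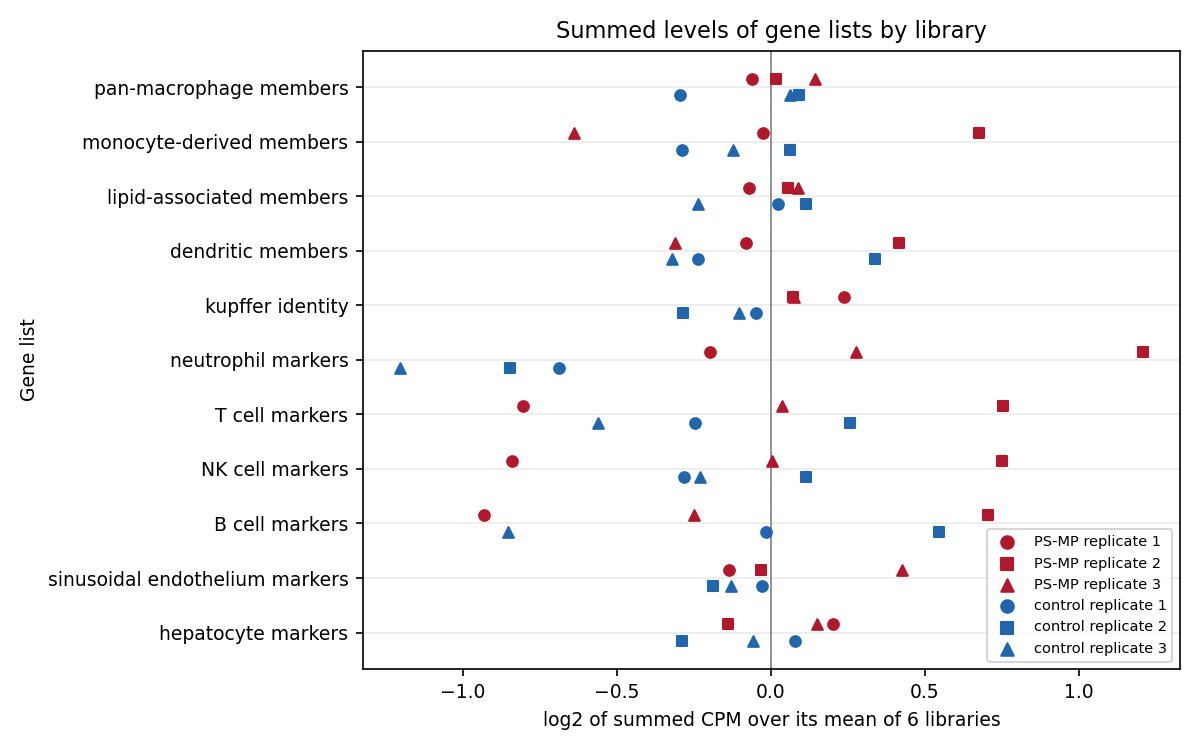
Summed CPM of selected gene lists in each library, as log2 of its ratio to the mean of the 6 libraries, with PS-MP (red) above control (blue) in each row. The Kupffer identity and neutrophil lists show every PS-MP library to the right of every control library, while the T, NK and B cell lists are highest in PS-MP replicate 2.

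Kupffer cell identity genes outside the 35 gave 0 calls among 15 in edgeR, with 2 at an unadjusted p under 0.05 (Marco and C1qc). Both were higher, as were 2.80% of all genes at that level. All 15 listed (among them Clec4f, Vsig4, Timd4, Cd163 and the C1q chains) had log2 fold changes above 0, where 52.8% of all genes did, with a median of 0.34. Their summed level was 517.8, 461.6 and 462.7 CPM in PS-MP and 424.3, 360.1 and 408.8 CPM in control, and 5 of the 15 genes lay entirely above control, where 6.24% of all genes did. For 9 of the 15 the 95% interval lay inside 2-fold. Marco, a scavenger receptor for particles and bacteria, had 22.9, 8.42 and 8.62 CPM in PS-MP and 3.39, 3.50 and 1.54 CPM in control (log2 fold change 2.25, SE 0.50, edgeR adjusted p = 0.767), and PS-MP replicate 1 was by far the highest. C1qc, a chain of the first complement component, had a log2 fold change of 0.45 (SE 0.15, edgeR adjusted p = 0.869). Clec4f, found only on Kupffer cells in mice, averaged 33.5 ± 8.57 CPM in PS-MP and 30.6 ± 4.93 CPM in control (SD, n = 3 each), and overlapped.

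Over the 20 lists of related genes and cell markers, which hold 185 genes, edgeR called 0 of the 170 that were tested. It called 0.0113% of all genes. In edgeR 8 higher and 3 lower genes had unadjusted p under 0.05, where 2.80% of all genes were higher and 2.58% lower. DESeq2 called 3 (Marco and S100a9 higher, the adipocyte gene Retn lower) and limma-voom called 0, against 1.06% and 0.00566% of all genes. Of 11 other monocyte genes tested all were above 0 (median log2 fold change 0.24), where 52.8% of all genes were. Of the 11, 0 separated the diets, where 6.24% of all genes lay entirely above and 4.99% entirely below. Ccr2, the receptor that draws monocytes out of the marrow, was at 0.85 (95% interval -0.55 to 2.24). Of 9 other genes of lipid-associated macrophages, 5 were below 0. Fabp5 and Lipa lay entirely below control, 2 of the 9 where 4.99% of all genes did, and 0 lay entirely above. Fabp5 had -1.17 (SE 0.52, edgeR adjusted p = 0.923). Lipa, the lysosomal acid lipase that hepatocytes also make, had -0.59 (SE 0.18, edgeR adjusted p = 0.805). Of 18 other dendritic genes, 12 were below 0. Bst2, high on plasmacytoid cells and induced by interferon, had -0.39, and Ccr9, a gut-homing receptor of plasmacytoid cells and lymphocytes, had 1.26, with edgeR adjusted p of 0.918 and 0.896.

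Among 13 myeloid growth factor and transcription factor genes tested, 9 were above 0, where 52.8% of all genes tested were. Csf1 and Il34, the ligands of Csf1r, had log2 fold changes of 0.10 (95% interval -0.38 to 0.58) and -0.21 (-0.86 to 0.45). Of 6 NADPH oxidase subunits, 5 were above 0, and Cyba, the membrane partner of Cybb, was at 0.27 (-0.18 to 0.72). Of 13 genes of ITAM and ITIM signalling, 9 were above 0, with a median of 0.12. The inhibitory receptor gene Pirb was at 0.46 (-0.05 to 0.97). Above 0 were also 8 of 10 genes of dead-cell clearance and 10 of 12 Toll-like receptor genes, with medians of 0.11 and 0.16. The lowest log2 fold change of the dead-cell clearance genes was -1.02. Their summed level averaged 389.1 CPM in PS-MP and 553.4 CPM in control, and that of the Toll-like receptor genes 37.0 and 36.6 CPM. Both sums overlapped between the diets.

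Of the remaining cell markers, the summed levels of sinusoidal endothelium were 92.5 to 136.5 CPM in PS-MP and 89.2 to 99.7 CPM in control. Stellate cell markers gave 232.2 to 329.1 CPM in PS-MP and 294.0 to 299.5 CPM in control, cholangiocyte markers 4.73 to 7.91 and 4.48 to 8.36 CPM, and mesothelium markers 5.15 to 6.56 and 1.43 to 7.01 CPM. The adipocyte markers gave 5.48 to 22.3 CPM in PS-MP and 2.37 to 12.3 CPM in control, and all of these ranges overlapped. Red cell markers did not, at 286.5 to 418.3 CPM in PS-MP and 150.7 to 263.5 CPM in control. Sctr of the cholangiocyte list was at 0 in every library.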

How the data were processed

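RNA was measured in liver; per the labels, a column kit, poly(A) selection and a directional library kit were used, and bcl2fastq and the build GRCm39 are named in the submitters' processing notes. The deposited values are unnormalised whole-number read counts per gene. The aligner, counter, annotation and strand setting were not given in the sources used here, so reads of near-identical or overlapping genes cannot be assigned with certainty. Rows were summed for 67 symbols that occur repeatedly.

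Counts were filtered (edgeR 4.0.16, filterByExpr), scaled by TMM and compared with the quasi-likelihood F test (R 4.3.3), with diet as the only term and Benjamini-Hochberg adjustment over 17662 genes. Intervals use the standard error and 6.63 degrees of freedom. Alternatives were other scalings and filters, DESeq2 1.42.0, limma-voom (limma 3.58.1), removal of ribosomal RNA rows, a block for the replicate number, and removal of each library in turn. The fit was tested on simulated data. Replicates differed beyond sampling noise. Floors cover counting error only.

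The genes and lists were chosen with earlier results of these data known. By rule, values per library are given for genes with p under 0.05, genes that did not overlap, those with the highest level or smallest p of a role, and 12 fixed genes; other genes given in full were chosen after their values were seen. Shared 50-base words and exon lengths come from GENCODE M21 (GRCm38).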

Additional observations from a re-analysis of the deposited data

How the results depend on the processing

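The count of 0 of these genes at an adjusted p of 0.05 was the same under every alternative run. Over all genes, the 2 calls became 187 with DESeq2, 1 with limma-voom, 0 with the replicate number as a block, and 0 to 4 with a library left out. Scaling by library size alone gave 13 genes with unadjusted p under 0.05 in edgeR instead of 3, all higher, as were 8.27% of all genes. It gave 14 that lay entirely above control instead of 9, as did 17.5% of all genes, and 8 inside 2-fold instead of 15. With a library left out these counts ran from 0 to 5, 10 to 17 in either direction, and 10 to 16. Without PS-MP replicate 2, for example, 10 genes lay above and 2 below. Of all genes, 9.34% to 15% lay entirely above and 7.95% to 14.2% entirely below with a library left out. The labels give no pairing by replicate number. Deviations of same-numbered libraries correlated at 0.168, 0.193 and -0.149, and those of differently numbered libraries between -0.287 and 0.123. With 3 libraries per diet these values cannot settle whether the numbers pair the libraries. With the replicate block 3 genes had unadjusted p under 0.05 in edgeR (2 higher, Csf1r and Fcgr3, and 1 lower, Id3). Of all genes 2.71% were then higher and 2.64% lower at that level. With this block 14 genes lay inside 2-fold. The log2 ratio of the summed pan-macrophage level, 0.07, was 0.29 with library size alone, 0.27 with Id3 left out (added after the data were seen) and -0.04 to 0.14 with a library left out. For lipid-associated genes 0.05 became 0.27 with library size alone and ran from -0.04 to 0.12 with a library left out. The other sums then ran from -0.19 to 0.46 (monocyte-derived) and -0.15 to 0.32 (dendritic). Cd9 averaged 10.7 CPM of a lipid-associated sum of 16.3 CPM in PS-MP, and 11.2 of 15.8 CPM in control. Irf8 averaged 5.40 CPM of a dendritic sum of 8.18 CPM in PS-MP, and 5.58 of 7.72 CPM in control. Both sums thus say little about their scarce genes.

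With library size alone, log2 fold changes turned for Trem2 (0.079), Cd9 (0.15), Itgax (0.026) and Irf8 (0.18). With a library left out, these ranges crossed 0: Cd14 -0.15 to 0.65, Fcer1g -0.042 to 0.29, Lyz1 -1.07 to 0.58, Mpeg1 -0.46 to 0.14, Spi1 -0.025 to 0.18, Itgam -0.55 to 0.24, Ly6c2 -0.62 to 0.76, Trem2 -0.34 to 0.061, Cd9 -0.20 to 0.036, Clec9a -0.052 to 1.18, Itgax -0.75 to 0.11 and Irf8 -0.28 to 0.12. Causes were not tested. Several dendritic genes had under 50 counts in a library; the part of depth in their spread was not tested.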
